A study of Mus musculus with 278 samples.

Results

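The numbered zinc finger protein genes of the mouse carry the symbol Zfp followed by a number. Of 332 such symbols in the expression matrix, 241 are described here across single spermatogonia. These 241 members were chosen by their measured values, as the symbols that reached an FPKM of 1 in 10% or more of 278 cells, which is 28 cells. FPKM is the number of sequenced fragments for each kilobase of transcript, divided by the total mapped in the cell. A gene is called found in a cell where it reached that value. Zfp36 was left out by the same rule, because it encodes an RNA-binding protein with another kind of zinc finger. The remaining 91 symbols lay below the threshold, and 9 of them were listed at 0 in every cell. Just inside the threshold were Zfp13, Zfp541 and Zfp628, each in 28 cells (10.1%). Just outside were Zfp595 in 27 cells (9.71%) and Zfp182 and Zfp459 in 26 cells each (9.35%). How often and how highly the members were expressed overall is therefore a description of the selection, given without a test.

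The cells were sorted EGFP-positive spermatogonia from the testes of untreated mice at postnatal day 6 with a reporter of Id4, a gene expressed in spermatogonial stem cells. Testes of several pups were pooled in a preparation, and single cells were captured on microfluidic chips, imaged and turned into polyA RNA libraries, so that each of the 278 samples is 1 cell. By brightness of EGFP the cells fell into the quartiles Q1 (bright, 74 cells), Q2 (70 cells), Q3 (74 cells) and Q4 (dim, 60 cells), in the order that the series' design text gives. A protocol passage numbers the dim quartile differently. For the strain and the number of Id4-EGFP alleles the sources used here give nothing. All 4 groups are EGFP-positive, so Q4 is dim and not negative. The cells came from 5 preparations of 26, 62, 37, 75 and 78 cells, numbered by the run number in the sample titles. Each preparation held all 4 quartiles, with 4 to 20 cells a quartile. Nothing in the labels says that the preparations came from separate litters, so p-values speak for these preparations only. For quartile comparisons they measure how much the differences between quartiles varied from preparation to preparation.

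Most proteins of this family carry fingers of the C2H2 type, in which a pair of cysteines and a pair of histidines hold a zinc ion and the finger contacts a few bases of DNA. Many also carry a KRAB domain near the start of the protein, whose A box binds the corepressor KAP1 (Trim28). KAP1 brings in the histone methyltransferase Setdb1, heterochromatin proteins and deacetylases. KRAB zinc finger proteins are known as silencers of endogenous retroelements and, for Zfp57 and Zfp445, as guardians of DNA methylation at imprinted regions. Members without a KRAB domain include activators of transcription, factors of pluripotent cells, and proteins of RNA, ribosomes and the spindle.

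Preparation 3 stood apart before any comparison. Its cells had 4437 genes found on average, against 5875 to 7148 in the other preparations, although its estimated depth of 685764 mapped fragments per cell (median) was within the range of the others, from 398006 to 700173. Over all cells the estimated depth had a median of 622344 fragments and ran from 203879 to 1270840, so that 1 FPKM of the median member transcript (3160 bases) was worth about 1.97 fragments. All 8 germ cell markers looked at were found, with Ddx4, Dazl, Mael and Uchl1 in 100% of cells. Some markers of other testis cells were found at low levels. The Sertoli list summed to 2.04 to 34.6 FPKM over the preparations in Q1 and to 0.459 to 20.1 FPKM in Q4, with Rhox8 in 23% of cells, Clu in 10.1% and Amh at 0 in all. The Leydig list summed to 0 to 2.95 FPKM in Q1 and to 0 to 2.12 FPKM in Q4, with Star in 19.8% of cells and the other 5 of 6 at 0 in all. The peritubular and stromal list summed to 1.33 to 8.75 FPKM in Q1 and to 0.538 to 5.13 FPKM in Q4, with Col1a1 in 23.4% of cells, Pdgfra in 17.3% and Dcn at 0 in all. The endothelial and macrophage list summed to 0.772 to 4.22 FPKM in Q1 and to 0.165 to 23.3 FPKM in Q4, with Pecam1 in 10.1% of cells. The highest correlation between any pair of cells was 0.69, so no cell was present in duplicate.

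KRAB A boxes are shown for members with small p-values between bright and dim cells. Of the 10 members with the smallest, 7 carry a box, next to 53.9% of all members. The fingers are shown because they are what the family shares. The first set gives 90 coding bases of the A box on the coding strand, 5′ to 3′, from GENCODE M21 transcripts of GRCm38. Capitals mark the codons that match a list of 15 conserved residues of the box. Zfp445 stands for the imprint factors.
Zfp948: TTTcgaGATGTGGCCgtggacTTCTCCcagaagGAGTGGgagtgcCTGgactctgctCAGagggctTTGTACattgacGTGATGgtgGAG
Zfp58: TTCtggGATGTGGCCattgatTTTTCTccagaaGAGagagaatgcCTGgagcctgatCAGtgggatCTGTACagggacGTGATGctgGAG
Zfp748: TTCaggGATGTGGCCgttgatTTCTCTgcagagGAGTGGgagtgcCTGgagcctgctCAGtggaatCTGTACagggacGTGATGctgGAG
Zfp825: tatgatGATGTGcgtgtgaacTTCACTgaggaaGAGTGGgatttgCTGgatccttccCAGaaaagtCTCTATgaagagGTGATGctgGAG
Zfp445: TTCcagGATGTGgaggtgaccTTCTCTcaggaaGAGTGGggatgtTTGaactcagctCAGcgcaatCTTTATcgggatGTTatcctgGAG
Zfp948 (chr17:21567008-21588699, plus strand) and Zfp748 (chr13:67538641-67553830, minus strand) matched 15 of the 15 residues. Zfp58 (chr13:67490167-67500555, minus strand) matched 14, and both Zfp825 (chr13:74480054-74493992, minus strand) and Zfp445 (chr9:122844529-122866006, minus strand) matched 13. Base by base, the box of Zfp748 equals that of Zfp948 at 71 of 90 positions, that of Zfp58 at 66, that of Zfp445 at 60 and that of Zfp825 at 58.

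The second set gives single C2H2 fingers of 63 bases, with capitals for the codons of the zinc-binding cysteines and histidines. The first 3 are consecutive fingers of Zfp948, and the others are from Zfp467 (chr6:48427697-48445825, minus strand) and Zfp296 (chr7:19577287-19580656, plus strand), in which no KRAB A box was found.
Zfp948 finger 1: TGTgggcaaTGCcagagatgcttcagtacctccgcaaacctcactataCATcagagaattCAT
Zfp948 finger 2: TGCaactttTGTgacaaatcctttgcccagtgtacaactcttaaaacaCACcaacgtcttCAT
Zfp948 finger 3: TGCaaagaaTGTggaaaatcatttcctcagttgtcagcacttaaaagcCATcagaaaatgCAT
Zfp467 finger: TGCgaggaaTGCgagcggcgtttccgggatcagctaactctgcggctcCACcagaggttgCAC
Zfp296 finger: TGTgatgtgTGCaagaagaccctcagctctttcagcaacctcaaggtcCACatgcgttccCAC
In the 3 fingers of Zfp948 the capitals stand at the same places, while the bases between the second cysteine and the first histidine, which include those for the DNA-contacting residues, differ.

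The members were a mixture of KRAB and other genes. All 241 were matched to GENCODE M21, 3 of them under a newer symbol. A KRAB A box, called at 11 or more of 15 residues in the longest annotated coding sequence of a gene, was found in 130 members (53.9%) and not in 111. Of the 86 symbols below the threshold with a coding sequence, 48 had one, and so did 236 of all 19258 coding genes of the matrix. C2H2 fingers were found in 233 members. They numbered 11 at the median, 12 in KRAB members and 7 in the others, and reached 37 in the member with the most. In 8 members, Zfp365 among them, no such finger was found in that sequence.

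Many members lie side by side in the genome. Chromosome 7 held 54 members, chromosome 17 held 35, chromosome 8 held 19 and chromosome 13 held 17. Another member lay within 500 kb of 151 members, and 11 chains of at least 5 neighbours held 86. The chain with the most members spans chr17:21008903-23599487 and holds 18 members, 17 with a KRAB A box, from Zfp160 to Zfp13 and with Zfp51, Zfp53, Zfp948 and Zfp760 within it. A chain of 13 spans chr7:29768552-30169750, with Zfp568, a repressor of a placental Igf2 transcript, and Zfp82 in it. The family also shares sequence, which bears on every value below: in 22 members at least 25% of all runs of 50 bases in their transcripts also occur in transcripts of other genes. Those runs made up 100% in Zfp708, 94.4% in Zfp82 and 52.2% in Zfp58. The genes that held the most of them were Gm28557, Gm26920 and Gm26965, in that order. An exon of another gene overlapped 22 members on the same strand and 58 on the opposite strand, and the sources used here do not say how the quantifier split such fragments.

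Most members were found in a minority of cells, and in those cells at moderate levels. The median member was found in 35.6% of cells, against 56.5% for all 10452 genes that passed the same filter. KRAB members were found in 31.8% of cells at the median and the others in 45%. In the cells that had them the order was the other way round, with a median of 17.1 FPKM for KRAB members and 13.1 FPKM for the others. Only 6 members were found in at least 90% of cells, namely Zfp207, Zfp318, Zfp330, Zfp644, Zfp655 and Zfp706, and none of them is among the KRAB members. In contrast, 73 members were found in under 25% of cells. Mean levels over the 5 preparations ran from 0.726 to 482 FPKM with a median of 9.30 FPKM. A total of 14 members were at 50 FPKM or more and 127 under 10 FPKM.

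**Figure D1:**
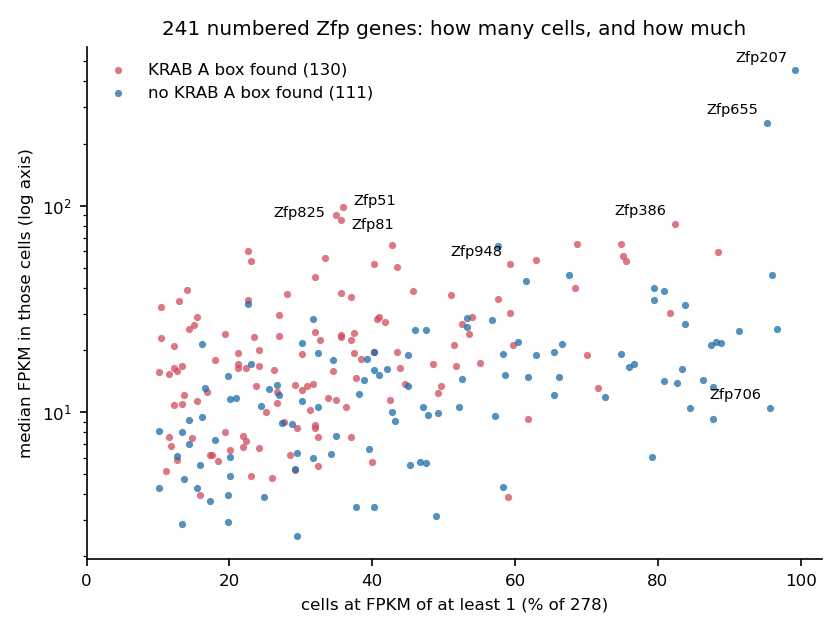
Each point is 1 of 241 members, with the percentage of 278 cells that reached 1 FPKM on the x axis and the median FPKM in those cells on the y axis (log scale), coloured by whether a KRAB A box was found (130) or not (111). Zfp207 and Zfp655 stand at the upper right, while Zfp51, Zfp81 and Zfp825 are high in about 35% of cells.

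Zfp207, which encodes a spindle protein that binds Bub3 and microtubules, had the highest level of all members. It averaged 482 ± 37.0 FPKM (SD, n = 5 preparations) and was found in 99.3% of cells. Zfp655, a C2H2 gene without a KRAB A box, followed at 250 ± 92.5 FPKM in 95.3% of cells. The next 8 members by level all carry a KRAB A box. Zfp386 averaged 104 ± 18.8 FPKM, Zfp951 88 ± 20.9 FPKM, Zfp936 85.4 ± 28.7 FPKM and Zfp930 80.3 ± 19.7 FPKM, and each of these 4 differed from its neighbour in the order by less than the spread over preparations. Zfp51, at 74.2 ± 64.7 FPKM, owed its place to preparation 3, with 185 FPKM there and 27.6 to 76.9 FPKM elsewhere, and averaged 46.5 FPKM without it. It was found in 36% of cells, but in those cells its median was 98.7 FPKM, the third highest after Zfp207 (453 FPKM) and Zfp655 (252 FPKM). Zfp825 (89.9 FPKM in 34.9% of cells) and Zfp81 (84.8 FPKM in 35.6%) had the same pattern. Zfp948 averaged 69.4 ± 36.9 FPKM, Zfp266 62.6 ± 15 FPKM and Zfp808 61.9 ± 21.4 FPKM. Zfp808 shares 43.1% of its runs with other genes, Zfp934 first among them, and Zfp936 shares 15.2% of its own. Their levels may therefore hold fragments of other genes.

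Zfp948, a KRAB gene with 15 fingers, was the only member to pass a test over EGFP quartiles. In Q1 its mean level was 93.6, 122, 18.4, 46.6 and 66.2 FPKM in preparations 1 to 5, and in Q2 it was 127, 173, 185, 60.3 and 71.9 FPKM. In Q3 the levels were 99.9, 104, 8.44, 25.3 and 1.59 FPKM, and in Q4 they were 81.4, 61.1, 0.239, 11.2 and 51.6 FPKM. Q2 was at the top in every preparation and Q1 was above Q4 in each, but the order was not even, since Q3 was above Q1 in preparation 1 and Q4 above Q3 in preparation 5. The ranges of Q1 and Q4 overlapped. By share of cells, Zfp948 was found in 67.9 ± 21.6% of Q1 cells, 74.9 ± 18.4% of Q2 cells, 55.5 ± 18.7% of Q3 cells and 45.2 ± 23.2% of Q4 cells (SD, n = 5). The linear slope of its level was 0.60 ± 0.12 log2(FPKM + 1) units per quartile step toward Q1 (± SE, limma adjusted p = 0.0480). The rise did not continue from Q2 to Q1, where the fitted Q1 minus Q2 difference was -0.45 ± 0.37 (adjusted p = 0.999). Between Q1 and Q4 the difference was 1.47 ± 0.39 (adjusted p = 0.143) and was positive in 5 of 5 preparations. Between Q2 and Q3 it was 1.59 ± 0.37 (unadjusted p = 0.000257, adjusted p = 0.974), the highest fitted Q2 minus Q3 difference of 10452 genes. Zfp53, singled out after its values were seen, had the next highest at 1.49 ± 0.40 (adjusted p = 0.974). It lies in the same chain on chromosome 17, and whether the 2 genes share a pattern was not tested. The call for the trend is narrow: without any 1 of the preparations the slope was 0.51 to 0.65 and its adjusted p 0.0559 to 0.252, and with genes detected per cell as a covariate the slope was 0.87 with an adjusted p of 0.416.

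**Figure D2:**
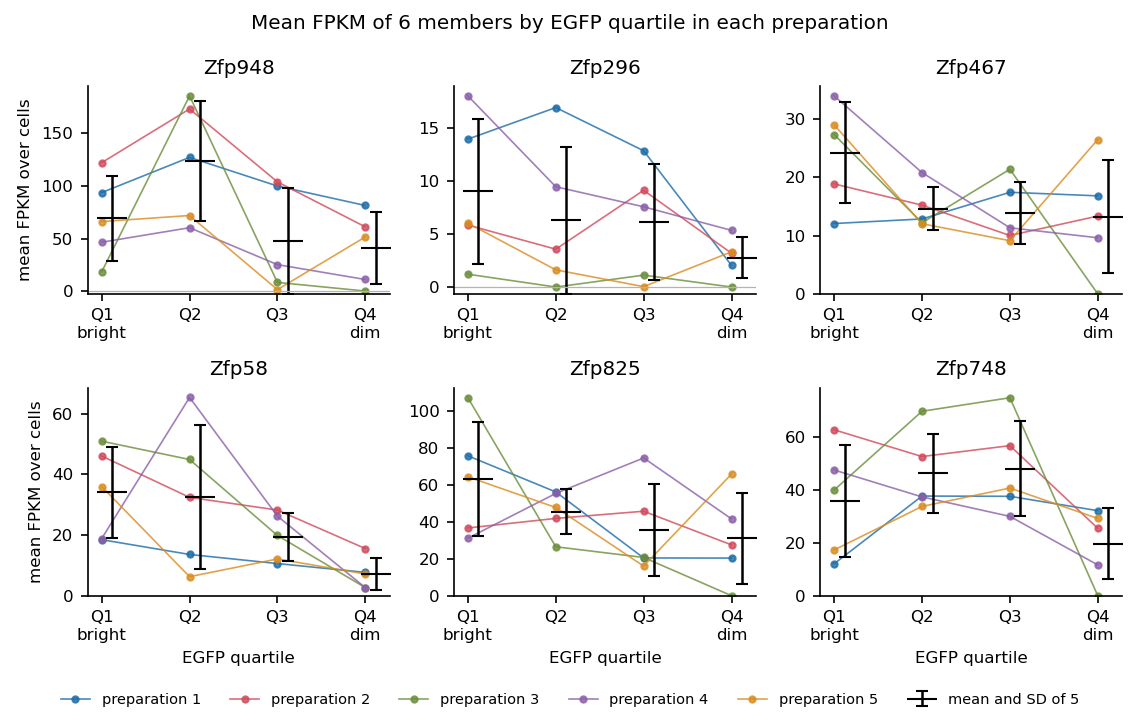
Mean FPKM over cells (y axis) in EGFP quartiles Q1 (bright) to Q4 (dim) (x axis) for Zfp948 and the 5 next members by p between Q1 and Q4, with 1 coloured line per preparation and black bars for the mean and SD of the 5 preparations. Zfp948 peaks in Q2 in every preparation, from 60.3 to 185 FPKM, and 4 of the 6 genes are listed at 0 in Q4 of preparation 3.

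No member differed between Q1 and Q4 at an adjusted p of 0.05 in limma, where 8 of 10452 genes (0.0765%) did. At an unadjusted p under 0.05 there were 25 members, 24 higher and 1 lower in Q1 (10.4%, next to 11.4% of all genes), a share close to the background. Among all genes 10.4% were higher and 1.03% lower at that level. The count of 25 depended on the fit: it was 8 without the preparation block, 12 with genes detected per cell as a covariate and 14 with the log taken after averaging cells. With cells scaled to a common 75th percentile it was 33. The difference was above 0 in 173 of 241 members, with a median of 0.16 log2(FPKM + 1) units for members and 0.17 for all genes tested. KRAB members had a median of 0.18 with 17 of 130 at an unadjusted p under 0.05, and the others a median of 0.15 with 8 of 111. Along with this shift, Q1 cells had 6293 ± 931 genes found and Q4 cells 5732 ± 1305 (SD, n = 5). With genes detected per cell as a covariate the median was -0.038 for members and -0.016 for all genes.

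**Figure D3:**
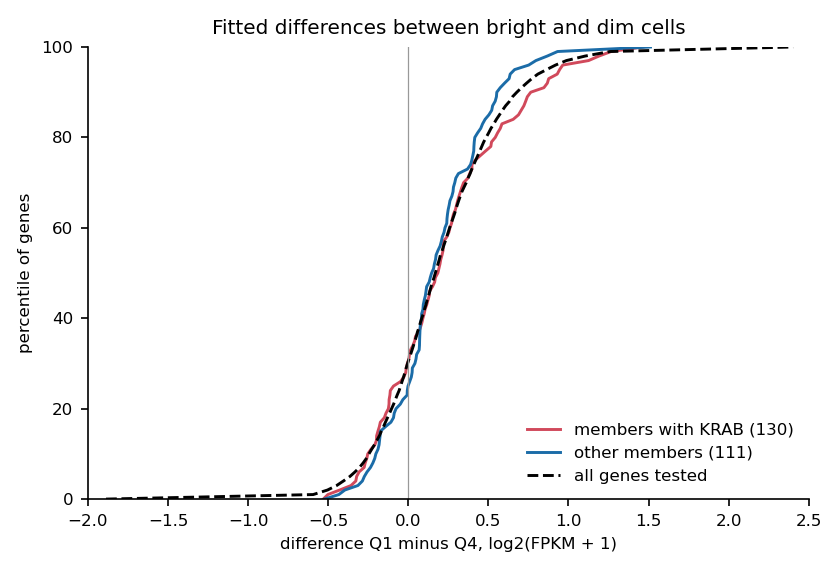
Cumulative distribution of the fitted difference Q1 minus Q4 in log2(FPKM + 1) (x axis) by percentile of genes (y axis), for 130 members with a KRAB A box, 111 other members and all genes tested. The 3 curves cross 0 at a similar height and have medians of 0.18, 0.15 and 0.17.

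The trend over the 4 quartiles gave the same picture. Besides Zfp948, which is 1 of 14 genes called (0.134% of all genes tested), 28 members had an unadjusted p under 0.05, Zfp948 included. Of the 28, 27 had higher levels toward Q1 and 1, Zfp963, had lower ones, next to 12.2% of all genes (11% higher and 1.24% lower). The count of 28 was 13 without the block, 14 with the covariate, 15 with the log taken after averaging and 18 without preparation 5. With cells scaled to a common 75th percentile it was 36. The median slope was 0.05 for members and 0.05 for all genes tested. Between neighbouring quartiles no member passed an adjusted p of 0.05 in limma, and neither did any other gene (0.0% in each of the 3 comparisons). At an unadjusted p under 0.05 there were 12 members between Q1 and Q2 (4.08% of all genes), 15 between Q2 and Q3 (4.68%) and 18 between Q3 and Q4 (7.4%). Member medians were -0.01 between Q1 and Q2, 0.02 between Q2 and Q3 and 0.16 between Q3 and Q4, and all genes tested had medians of 0.01, 0.03 and 0.14, the same pattern.

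The 10 members with the smallest p between Q1 and Q4 were all higher in Q1. Most genes at an unadjusted p under 0.05 in limma were too (10.4% of all genes tested higher, 1.03% lower). Of the 10, 7 carry a KRAB A box, next to 53.9% of all members, a difference that was not tested. The 10 were Zfp948, Zfp296, Zfp467, Zfp58, Zfp825, Zfp748, Zfp365, Zfp945, Zfp868 and Zfp39, with adjusted p-values of 0.143 to 0.323, none of which passes. The difference was positive in 5 of 5 preparations for 5 of them and in 4 of 5 for the other 5. In preparation 3 the Q4 cells (7 cells) had no cell with any value for 6 of the 10, and 74 of all members were listed at 0 there, against 0 to 48 in the other combinations of preparation and quartile. For those of the 10 described below, each difference between Q1 and Q4 is therefore followed by the one without preparation 3. For Zfp948, described above, the difference was 1.18 to 1.64 without any 1 of the preparations.

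Zfp296, known from embryonic stem cells as a partner of reprogramming factors, had 13.9, 5.84, 1.21, 18 and 6.02 FPKM in Q1 of preparations 1 to 5, against 2.04, 3.19, 0, 5.34 and 3.32 FPKM in Q4. Q1 was the higher in each preparation, and the ranges overlapped. The difference was 0.89 ± 0.24 (adjusted p = 0.159) and 0.94 without preparation 3. An exon of Gemin7 overlaps the gene on the opposite strand. Zfp467, which is known to steer mesenchymal cells between bone and fat, had 12.1, 18.8, 27.3, 33.9 and 29 FPKM in Q1 against 16.8, 13.3, 0, 9.61 and 26.4 FPKM in Q4. Preparation 1 ran the other way, and the difference was 1.51 ± 0.41 (adjusted p = 0.159), or 1.18 without preparation 3.

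Zfp58, a KRAB gene of the chromosome 13 chain, had 18.5, 46, 50.9, 18.8 and 36 FPKM in Q1, against 7.68, 15.5, 2.67, 2.66 and 7.16 FPKM in Q4. Every Q1 mean lay above every Q4 mean. The difference was 1.17 ± 0.33 (adjusted p = 0.163) and 1.21 without preparation 3. As a limit, a large part of its sequence is shared with other genes, Gm26965 first among them. Zfp748, which lies in the same chain, had 12, 62.7, 39.9, 47.5 and 17.3 FPKM in Q1, against 32.1, 25.5, 0, 11.6 and 29.2 FPKM in Q4. Preparations 1 and 5 had the lower mean FPKM in Q1, while on the log scale only preparation 1 was lower, and the difference was 1.12 ± 0.36 (adjusted p = 0.219), or 1.04 without preparation 3. Zfp825, also on chromosome 13, had 75.7, 36.7, 107, 31.1 and 64.3 FPKM in Q1, against 20.4, 27.5, 0, 41.5 and 65.8 FPKM in Q4. Mean FPKM was lower in Q1 of preparations 4 and 5, while on the log scale Q1 was higher in all 5. Its difference of 1.22 ± 0.38 (adjusted p = 0.199) was 0.90 without preparation 3 and 0.09 with genes detected per cell as a covariate. Zfp825 shares 28.7% of its runs with other genes, Gm46430 first among them.

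The last 4 of the 10 were lower in level or more uneven. Zfp365, a gene known from neurons and the centrosome, averaged 4.34 ± 5.81 FPKM in Q1 and 0.370 ± 0.589 FPKM in Q4 (SD, n = 5), and was found in 26.8% of Q1 cells against 9.0% of Q4 cells, with a difference of 0.63 ± 0.23, or 0.69 without preparation 3. Zfp868 averaged 47 ± 25.0 FPKM in Q1 and 11.4 ± 16.5 FPKM in Q4, with a difference of 1.28 ± 0.48. That difference was 1.38 without preparation 3, 1.96 without preparation 2 and 0.67 with genes detected per cell as a covariate. Zfp39 averaged 16.4 ± 10.2 FPKM in Q1 and 5.48 ± 4.02 FPKM in Q4, with a difference of 0.93 ± 0.37, or 1.08 without preparation 3. Zfp945, of the same chain on chromosome 17 as Zfp948, averaged 5.55 ± 2.90 FPKM in Q1 and 2.0 ± 1.47 FPKM in Q4, with a difference of 0.64 ± 0.24. It was 0.59 without preparation 3, 0.24 with genes detected per cell as a covariate and 1.43 with the log taken after averaging cells. By p for the trend, Zfp534 and Zfp661 joined the 10. Zfp534 was found in 85% of Q1, 72.7% of Q2, 66.6% of Q3 and 48.7% of Q4 cells, with a slope of 0.36 ± 0.12 (adjusted p = 0.231), and shares 68.4% of its runs with other genes. Zfp661 had a slope of 0.24 ± 0.09 (adjusted p = 0.244) and was highest in Q2, at 16.1 FPKM.

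The 1 member lower in Q1 at an unadjusted p under 0.05 was Zfp169, a KRAB gene, with a difference of -0.49 ± 0.23 (adjusted p = 0.406). Its Q4 mean was 83.8 FPKM in preparation 3 and 4.75 to 10.6 FPKM in the others. Without preparation 3 the means of Zfp169 were 2.37 FPKM in Q1 and 7.77 FPKM in Q4. Zfp760, singled out after its values were seen, lies next to Zfp948 in the chain on chromosome 17 and showed another pattern. Its mean level was 1.87, 3.61, 0.997, 4.04 and 4.95 FPKM in Q1 of preparations 1 to 5, and 0, 2.31, 0, 1.83 and 9.49 FPKM in Q2. In Q3 it was 0.210, 0.133, 0, 0.398 and 0.0735 FPKM, and in Q4 1.13, 4.45, 4.25, 11.1 and 12.7 FPKM. Every Q3 mean lay below every Q4 mean. The Q3 minus Q4 difference of -0.85 ± 0.16 had the smallest p of 10452 genes (2.36e-05), with an adjusted p of 0.246. It was -0.78 to -0.88 without any 1 of the preparations.

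Members with a known role in imprinting or retroelement silencing were expressed, at low to moderate levels. The list held 10 such KRAB genes, of which 8 are members. None was called between Q1 and Q4 in limma, 2 of 8 reached an unadjusted p under 0.05 with higher fitted levels in Q1 (10.4% of all genes tested did), and the list's median difference was 0.26, next to 0.17 over all genes tested. Zfp445, which keeps methylation at imprinted regions, was found in 42.4% of cells and had a difference of 0.73 ± 0.30. Its levels were 10.9 ± 4.43 FPKM in Q1 and 9.82 ± 12.4 FPKM in Q4 (SD, n = 5), where preparation 3 had 31.5 FPKM. Without preparation 3 its means were 10.1 FPKM in Q1 and 4.41 FPKM in Q4. Zfp708 had 28.3 ± 13.3 FPKM in Q1 and 8.40 ± 7.09 FPKM in Q4, with a difference of 0.73 ± 0.33, but all of its runs of 50 bases also occur in transcripts of other genes, Gm28557 first among them. Zfp57, which binds methylated imprinted regions, was found in 13.3% of cells, at 2.79 ± 2.49 FPKM in Q1 and 3.73 ± 3.58 FPKM in Q4, with a difference of 0.01 ± 0.22. Zfp809, which silences murine leukaemia virus in embryonic cells, had 7.25 ± 3.68 FPKM in Q1 and 3.64 ± 3.67 FPKM in Q4. Zfp568 had 3.77 ± 2.43 FPKM in Q1 and 2.46 ± 1.95 FPKM in Q4. The others, Zfp819, Zfp932 and Zfp961, had differences of 0.25, -0.11 and 0.28, each within its SE.

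The main partners of the KRAB box were found in nearly all cells. Trim28, the corepressor that the box binds, averaged 68.4 FPKM in 94.6% of cells, Setdb1 39.6 FPKM in 93.9% and the heterochromatin protein gene Cbx3 293 FPKM in 100%. All 25 listed genes of this machinery were tested. None was called between Q1 and Q4 in limma, 3 of 25 reached an unadjusted p under 0.05 (Mta3, Sumo3 and Morc3, all higher in Q1 on the log scale), next to 11.4% of all genes tested. Mta3 averaged 44.4 FPKM in Q1 and 46.9 FPKM in Q4, so its mean FPKM ran the other way. The median difference was 0.16, close to the 0.17 of all genes. Trim28 itself had a difference of -0.48 ± 0.28 (adjusted p = 0.542). Of the HUSH complex, which silences retroelements beside KAP1, 3 genes were tested and none was called, while 1 of the 3, Pphln1, reached an unadjusted p under 0.05 with the higher level in Q1, as did 10.4% of all genes tested.

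A list of sequence-specific regulators, gathered as genes outside the KRAB family, gave 18 members of 21 listed. Zfp266 was among them, although a KRAB A box was found in it. There were none called between Q1 and Q4 in limma, 1 of 18 at an unadjusted p under 0.05 (11.4% of all genes tested) and a median difference of 0.22, next to 0.17 over all genes. That 1 was Zfp148, a GC-box binding factor, at 25.3 ± 4.01 FPKM in Q1 and 20.7 ± 2.98 FPKM in Q4, with a difference of 0.69 ± 0.30. Zfp42 (Rex1), a marker of embryonic stem cells, was found in 31.7% of cells, at 13.2 ± 9.12 FPKM in Q1 and 9.90 ± 10.8 FPKM in Q4. Zfp281, a regulator of pluripotency genes, was found in 83.8% of cells, at 30.3 ± 6.94 FPKM in Q1 and 34.1 ± 16.3 FPKM in Q4, while its log-scale difference was 0.29 ± 0.39. Zfp410, an activator of Chd4, had 43.4 ± 17.6 FPKM in Q1 and 50.5 ± 14.1 FPKM in Q4. Zfp711, an X-linked partner of the demethylase Phf8, averaged 22.9 ± 4.78 FPKM in Q1 and 42.8 ± 46 FPKM in Q4, where preparation 3 had 125 FPKM. Without preparation 3 the means were 24.9 FPKM in Q1 and 22.3 FPKM in Q4, and the fitted difference over all preparations was 0.55 ± 0.37, higher in Q1. Zfp541, a gene of meiotic cells, was at the selection threshold, with 0.726 ± 0.584 FPKM, the lowest mean of all members. Zfp423 and Zfp521, known from progenitor cells of other tissues, lay below the threshold, in 1.44% and 5.04% of cells.

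The proteins of RNA, ribosomes, the spindle and ubiquitin gave 12 members of 13 listed. Between Q1 and Q4 none was called in limma (0.0765% of all genes tested) and none reached an unadjusted p under 0.05 (11.4% of all genes tested). A list of 12 genes is too short to set that apart from the background. The median difference was 0.07, next to 0.17 over all genes tested. Zfp207 had 467 ± 81.8 FPKM in Q1 and 507 ± 58.2 FPKM in Q4, with a log-scale difference of 0.14 ± 0.14. Zfp598, the ubiquitin ligase of collided ribosomes, had 6.59 ± 3.36 FPKM in Q1 and 7.69 ± 8.60 FPKM in Q4, and a log-scale difference of 0.28 ± 0.32. Zfp451, a SUMO ligase, had 34.5 ± 14.6 FPKM in Q1 and 39 ± 26.2 FPKM in Q4, where preparation 1 (4 cells) had 84.5 FPKM. Its fitted difference on the log scale had the other sign, 0.57 ± 0.38. Zfp622, a factor of large ribosomal subunit maturation, had 12.4 ± 5.23 FPKM in Q1 and 13.1 ± 7.75 FPKM in Q4. These genes were spread over many cells, from 46.8% for Zfp593 to 99.3% for Zfp207.

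The 5 preparations differed more than the quartiles did. The moderated F test of limma called 74 members (30.7%) between preparations, next to 32.6% of all genes tested, so the members were called about as often as other genes. The calls comprised 39 of 130 KRAB members and 35 of 111 others. In 71 of the 74 the preparation with the lowest share of cells was preparation 3, and so it was for 206 of all 241 members. Without preparation 3 the count was 21, of which 20 were among the 74. With genes detected per cell as a covariate it was 4, namely Zfp655, Zfp449, Zfp948 and Zfp551. The 4 quartile means of a preparation share a suspension and a chip run, so the test compares these preparations and the source of the difference cannot be told apart from the run.

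Zfp655 had the smallest p between preparations, with mean levels of 330, 311, 95.4, 253 and 262 FPKM in preparations 1 to 5 (adjusted p = 1.28e-08). Its low value was in preparation 3, where it was found in 73% of cells, against 97.3% to 100% elsewhere. Zfp948 had 102, 116, 43.3, 37.5 and 47.5 FPKM (adjusted p = 5.44e-05), with preparations 1 and 2 above the others. Zfp551, a KRAB gene, had 0.151, 10.6, 0.0248, 10.3 and 2.98 FPKM (adjusted p = 0.000804). Zfp808 had 73.2, 63, 25.3, 80.2 and 67.6 FPKM (adjusted p = 0.000930), low in preparation 3 only, where 8.11% of cells had it. Zfp637 had 70.3, 56.3, 57.1, 41.7 and 28.1 FPKM (adjusted p = 0.00113), with preparation 5 the lowest.

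**Figure D4:**
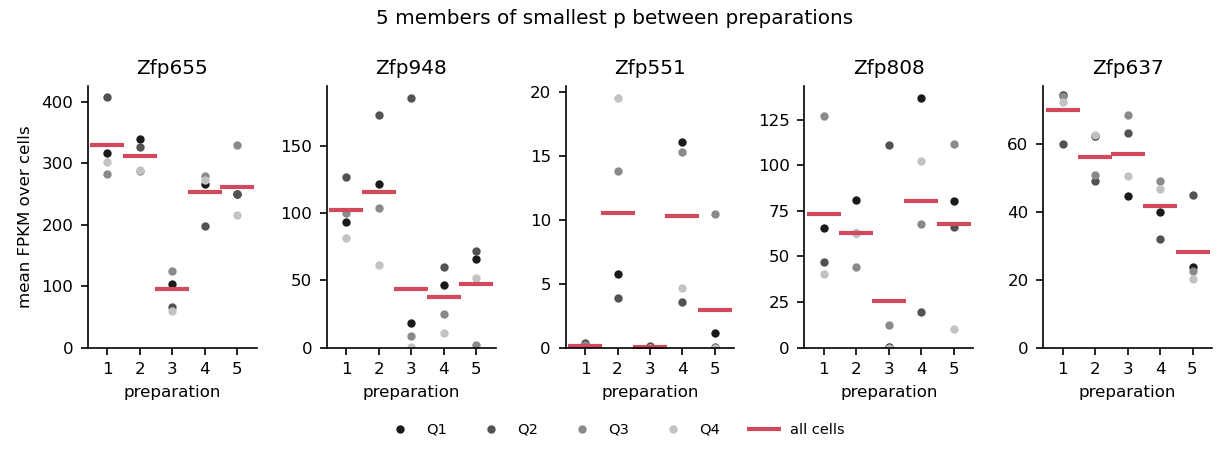
Mean FPKM over cells (y axis) of the 5 members of smallest p between preparations, by preparation (x axis), with 1 grey point per EGFP quartile (Q1 darkest) and a red bar for all cells of the preparation. Zfp655 is at 95.4 FPKM in preparation 3 and at 253 to 330 FPKM in the others, and Zfp948 spreads widely between its quartiles.

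In single cells the number of members found followed the number of genes found. A cell had between 21 and 145 members, with a median of 101.5. The mean was 121 members per cell in preparation 1, 118 in preparation 2, 58.2 in preparation 3, 97.4 in preparation 4 and 92 in preparation 5. As a share of all genes found in the cell, members made up 1.70%, 1.70%, 1.28%, 1.59% and 1.55%, so that preparation 3 was lower by this measure too. By share of all FPKM of a cell it did not stand apart. There the members took 0.780%, 0.927%, 0.783%, 0.845% and 0.872%, with preparation 1 as low as preparation 3. Spearman's correlation between the number of members and the number of genes found in a cell was 0.67, 0.74, 0.91, 0.92 and 0.93 within the 5 preparations, over 26, 62, 37, 75 and 78 cells. The counts share a library and its depth, so these are descriptions.

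Q1 cells had 101 ± 21.6 members, Q2 cells 100.2 ± 25.9, Q3 cells 97.7 ± 25.3 and Q4 cells 89.5 ± 31.6 (SD over preparations, n = 5). The means of preparations overlapped widely between quartiles. Q4 cells had the fewest members in preparations 2 to 5 and the most in preparation 1. Of all FPKM of a cell, the members took 0.836 ± 0.0667% in Q1 cells, 0.897 ± 0.0428% in Q2 cells, 0.838 ± 0.0898% in Q3 cells and 0.792 ± 0.0770% in Q4 cells (SD, n = 5). The mean of preparations was highest in Q2, and the SDs of the quartiles overlapped. Within each of the 5 preparations, however, Q2 was above both Q1 and Q4, and Q1 was above Q4. Some gaps were small, such as 0.756% in Q1 and 0.743% in Q4 of preparation 1. Q3 held no fixed place, with 0.898% against 0.841% in Q2 of preparation 4. These orders were not tested.

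**Figure D5:**
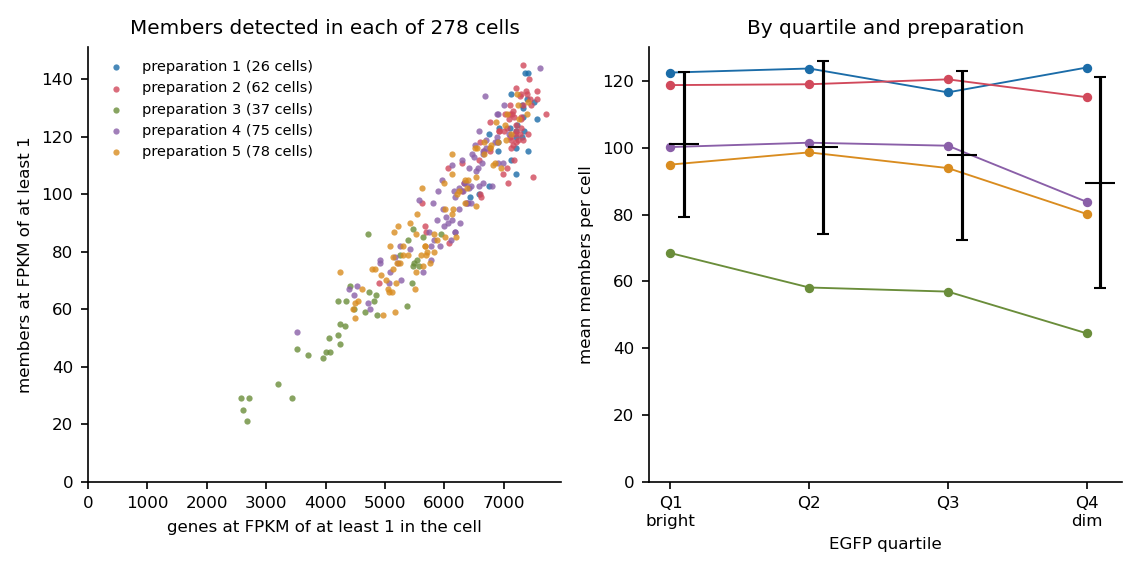
Left, members found (y axis) against all genes found (x axis) in each of 278 cells, coloured by preparation. Right, mean members per cell (y axis) by EGFP quartile (x axis) with 1 line per preparation and black bars for the mean and SD of 5 preparations, where preparation 3 lies lowest, at 44.4 to 68.5 members.

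Correlations between members over cells were weak. The median member was found in 35.6% of cells, and no pairs of other genes were set beside these. The values therefore cannot show whether cells share sets of members. Over 28920 pairs of members, Spearman's correlation across 278 cells, with values ranked within each preparation, had a median of 0.03, and 95% of pairs lay between -0.10 and 0.16. A single pair reached 0.3. This was Zfp960 with Zfp97 at 0.31, which lie 57302 bases apart on chromosome 17. They share 82.7% and 81.3% of their runs of 50 bases with transcripts of any other gene. Whether fragments of one were counted for the other was not tested. The next pair was Zfp81 with Zfp871 at 0.29, both on chromosome 17 and 563846 bases apart, with 0.304% and 0.250% of shared runs and 79 cells that had both. Zfp105 with Zfp711 (0.28), Zfp661 with Zfp82 (0.27) and Zfp422 with Zfp820 (0.26) lie on different chromosomes. Of these genes, Zfp82 shares 94.4% of its runs with other genes. Correlations of this size in sparse values are given as the upper end of the range only.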

How the data were processed

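Single-cell RNA-seq of 278 Id4-EGFP-positive spermatogonia was deposited as a matrix of FPKM, 1 value per gene and cell. No header states the unit, which is inferred from the quantifier used and the range of values. Per the submitters' processing notes the authors used FastQC, TopHat, Cufflinks and Picard with the mouse genome mm10 (GRCm38) (versions, annotation and strand settings not given in the sources used here). Wells with dead cells or more than 1 cell were removed by the authors after imaging, per the labels' protocols, and no doublet caller was run. All 278 columns were used, and none was left out. FPKM are not counts, and no count model was used. Depth was estimated from the steps between low FPKM in 2121 genes that have 1 annotated transcript, and whole reads were not recovered for the others. A value of 0 may be a molecule that was missed or an estimate that failed.

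Cells were not treated as replicates. Means of log2(FPKM + 1) over cells (pseudocount 1, which understates changes of low genes) were taken for the 20 combinations of preparation and quartile and fitted with limma 3.58.1 in R 4.3.3 (trend = TRUE), weighted by number of cells, with preparation as a block and 12 residual degrees of freedom. The 10452 genes that reached 1 FPKM in 10% of cells were tested, two-sided, with Benjamini-Hochberg adjustment over all of them and a threshold of 0.05. The block rests on the labels, by which quartiles of a preparation share a suspension, and same-preparation means deviated together in all 30 pairs (median correlation 0.19, lowest 0.08, against -0.07 between preparations). The fit was also run on means simulated from the same model with normal noise. Such a run cannot show how the fit behaves on sparse values.

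Named are members called over quartiles, the 10 of smallest p between Q1 and Q4 and for the trend, the 10 highest in mean FPKM and 5 highest where found, the role lists, the 5 of smallest p between preparations, those at the threshold, and the 5 most correlated pairs. Zfp53 and Zfp760 were named in addition, after their values were seen. For pairs, values were ranked within preparations instead of centred, a change made after seeing the data. Members and lists were chosen with earlier results of these data known. KRAB A boxes, fingers and shared runs of 50 bases were found in GENCODE M21 transcripts. Alternatives changed the pseudocount, the filter, the block, a covariate, the scaling, the averaging and the preparations used.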

Additional observations from a re-analysis of the deposited data

Results flagged for a closer look

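Values of the 5 preparations were looked at in 27 groups. These were Q1 minus Q4 differences of named members, mean FPKM of named members, and per-cell summaries of the members. In 1 group a preparation lay far from the other 4. For Zfp945 the difference between Q1 and Q4 was -0.88 log2(FPKM + 1) units in preparation 1, where Q4 holds 4 cells, against 0.63 to 0.85 in the other preparations. Chance alone is expected to single out about 1 in 20 such groups.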

How the results depend on the processing

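No member was called between Q1 and Q4, Q1 and Q2 or Q2 and Q3 under any of the 12 alternatives, and the 19 results on single members kept their direction in all 223 alternatives run. The trend call of Zfp948 was lost, leaving 0 members called, without a filter on low values (slope 0.60, adjusted p 0.131), without the replicate block (0.62, 0.702), with genes detected per cell as a covariate (0.87, 0.416), with the log taken after averaging cells (0.61, 0.491) and without each preparation in turn (slopes 0.51 to 0.65, counts 0 to 0). The paired fit was the one reported, and the fit without the block changed no other call. Without a filter 1 member, Zfp760, was called between Q3 and Q4 (adjusted p 0.0238). Between preparations the 74 calls became 124 with a pseudocount of 0.1, 47 without a filter, 4 with the covariate, 142 with cells scaled to a common 75th percentile, 11 with the log taken after averaging, and 21 to 86 without each preparation in turn (37 without preparation 2, 21 without preparation 3). With the covariate the median difference of members was -0.038 for Q1 minus Q4 and -0.016 for the trend. The scaling to a common 75th percentile moved the Q1 minus Q4 median of all genes to 0.26 and that of members to 0.23. The cause of these changes was not tested. Depth limits low members: at about 1.97 fragments per FPKM, a member near FPKM 1 rests on few fragments, and its absence from a cell is not evidence that the cell lacks it.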
